A study of Mus musculus with 13 samples.

Results

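The comparison described here is that of endometrium from ovariectomized mice kept on a high-fat diet (HD) with endometrium from ovariectomized mice kept on chow (CON), neither of which carried a hormone pellet. It rests on 6 of the 13 mice of the series, 3 HD and 3 CON, chosen by the group name in each sample's title. All 13 were female C57BL/6 mice whose ovaries were removed at an age of 6 to 8 weeks and which were then treated for 12 weeks, so the HD and the CON mice share the loss of ovarian hormones and differ in diet. The other 7 mice carried a subcutaneous pellet releasing estradiol, 3 of them on the high-fat diet (MIX) and 4 on chow (E2). They enter the shared estimate of the spread, and MIX with E2 serves as a diet comparison that shares no mouse with HD and CON. The endometrium was obtained by scraping the opened uterus, which can bring along glands, stroma, vessels, immune cells and uterine surface. The fat content of the diet and the weight of the mice are not given in the labels, and each group is 3 mice of 1 strain.

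The endometrium is the lining of the uterus, with a luminal epithelium, glands, a stroma with resident macrophages and lymphocytes, and vessels. Estradiol from the ovary drives its epithelium to divide, in part through growth factors released by the stroma, and progesterone from the ovary opposes this. After the ovaries are removed the uterus shrinks and no longer cycles. A high-fat diet is known to enlarge fat depots, to raise circulating insulin and lipids, and to bring macrophages into several tissues.

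Each mouse gave 1 array with 65929 features, each summarising the probes of a transcript, and all values below are log2 expression, so that a difference of 1 is a 2-fold difference. Arrays of the 6 mice were alike, with Pearson correlations across features of 0.985 to 0.993 within HD, 0.991 to 0.995 within CON, and 0.987 to 0.995 between an HD and a CON mouse. HD replicate 3 stood farthest from the others on the leading principal component, which held 33.4% of the variance, with a score of -55.9 where HD replicate 1 had 36.1. The titles carry 2 styles of animal code, numbered for replicates 1 and 2 of both groups and lettered for replicate 3 of both, and no label says what they mean. Differences are therefore also given within each style. The lettered CON mouse had more signal of fat cell genes than any of the other 5, with Retn, which encodes resistin, at 7.0 against 4.51 to 4.73 in them. Genes of maturing red cells were low in both lettered mice, with Alas2 at 6.35 in HD replicate 3 and 6.43 in CON replicate 3, against 7.45 to 8.09 in the numbered mice. Epithelial genes were bright in every array: markers of the luminal epithelium averaged 9.20 to 9.36 in HD mice and 9.23 to 9.43 in CON mice, while markers of ovary and oviduct averaged 4.99 to 5.03 in HD mice and 4.97 to 5.15 in CON mice.

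No gene passed the test between HD and CON. Of 65929 features, 0 (0%) had an adjusted p under 0.05 in limma, the smallest adjusted p was 1, and 1918 (2.91%) had an unadjusted p under 0.05. Of those 1918, 1314 (1.99% of all features) were higher in HD and 604 (0.916%) lower. All values below are thus measured differences that did not pass once adjusted for the number of features tested. Confidence intervals below are for single genes, without that adjustment. The differences are described by their size, by their standard error (SE), and by whether all 3 HD mice lay on 1 side of all 3 CON mice. The last is called no overlap here. Over all features 3678 (5.58%) had no overlap with HD higher and 1951 (2.96%) with HD lower. With arrays centred on their medians the balance turned round, to 2471 features with HD higher and 4450 with HD lower, so the excess on the HD side depends on the scaling. Among 30142 genes represented by 1 feature each, 1400 (4.64%) had no overlap with HD higher and 1180 (3.91%) had no overlap with HD lower. Leaving out the dimmer features, 803 (4.16%) of 19299 genes had no overlap with HD higher and 999 (5.18%) with HD lower. The typical SE of a difference was 0.116 (median over genes with 1 symbol).

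Among the brighter genes with no overlap, the largest positive differences were those of Apobec2, Itgam, Lvrn and Spink12. Apobec2, a member of the cytidine deaminase family known from muscle, was at 7.5, 10.22 and 10.27 in HD mice, against 6.80, 6.87 and 6.93 in CON mice. The CON mice lay close together and HD replicate 1 was the nearest to them, while the other HD mice were far above. The difference was 2.46 (SE 0.95, 95% confidence interval 0.36 to 4.56), a 5.50-fold higher level in HD. Itgam, which encodes the CD11b integrin chain of macrophages and neutrophils, was at 8.77, 10.12 and 10.89 in HD mice and at 7.87, 8.51 and 7.16 in CON mice (difference 2.08, SE 0.66). Here too the lowest HD mouse was replicate 1, and the gap to the highest CON mouse was small. The aminopeptidase gene Lvrn, known from human placental trophoblast as laeverin, was at 6.47, 7.92 and 8.5 in HD mice and at 6.04, 5.6 and 5.43 in CON mice (difference 1.94, SE 0.52).

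Spink12, a secreted inhibitor of serine proteases, was at 9.66, 9.73 and 9.27 in HD mice and at 8.90, 8.51 and 5.6 in CON mice (difference 1.88, SE 0.63). The HD mice were alike and the size of the difference came mostly from the lettered CON mouse: without CON replicate 3 the plain difference of group means was 0.85. Ctss, which encodes the lysosomal protease cathepsin S of antigen-presenting cells, was at 9.69, 9.50 and 9.72 in HD mice and at 8.90, 8.15 and 7.65 in CON mice (difference 1.40, SE 0.40, 95% confidence interval 0.51 to 2.30). The HD values for Ctss spanned a narrow range above all CON values. The protease gene Tmprss11d differed by 1.69 (SE 1.00), the protease inhibitor gene of the serpin family Serpinb5 (maspin) by 1.14 (SE 0.75), and the amino acid transporter gene Slc6a14 by 1.14 (SE 0.88). Cavin3, a coat protein of caveolae, differed by 1.35 (SE 0.47), the tetraspanin gene Tspan12 by 1.22 (SE 0.55) and the phospholyase gene Etnppl by 1.21 (SE 0.37). For Tspan12 and Etnppl HD replicate 3 was the highest mouse by more than 1, and without it the plain differences of group means were 0.67 and 0.65.

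The largest negative differences with no overlap belonged to 9 immunoglobulin V segments, described further down, and to Tgfbi, Ccnd2 and Etv5. Tgfbi, which encodes a matrix protein induced by TGF-beta, was at 9.46, 8.71 and 7.95 in HD mice, against 10.32, 10.74 and 11.85 in CON mice. All HD mice were below all CON mice, with the lettered mice at the far end of both groups. The difference was -2.26 (SE 0.80, 95% confidence interval -4.04 to -0.48). Ccnd2, which encodes cyclin D2, a partner of CDK4 and CDK6 at the start of the cell cycle, was at 7.68, 7.24 and 6.48 in HD mice and at 9.12, 9.34 and 8.94 in CON mice. The groups were separated by more than 1, and the spread among CON mice was small. The difference was -2.0 (SE 0.37, 95% confidence interval -2.83 to -1.17), and leaving out 1 of the 6 mice moved the plain difference of means between -2.27 and -1.67. Etv5, an ETS transcription factor induced by FGF and ERK signalling, was at 6.85, 6.25 and 6.05 in HD mice and at 7.62, 8.03 and 7.38 in CON mice (difference -1.29, SE 0.41).

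Leaving out the V segments, a choice made after the values were seen, the next largest negative differences were those of Osr2, Susd2, Cabcoco1, Gdf10 and Tox3. Osr2, a zinc finger transcription factor, was at 7.03, 6.74 and 7.44 in HD mice and at 8.23, 8.71 and 7.82 in CON mice (difference -1.19, SE 0.84). Susd2, a membrane protein that marks stromal stem-like cells in human endometrium, was at 7.64, 7.09 and 7.13 in HD mice and at 7.66, 8.27 and 9.46 in CON mice (difference -1.17, SE 0.40). The groups of Susd2 nearly touched, at HD replicate 1 and CON replicate 1. Gdf10, a ligand of the TGF-beta superfamily, differed by -1.11 (SE 0.89) and the HMG-box gene Tox3 by -1.07 (SE 0.38). On the positive side the next were the calcium channel subunit gene Cacna2d3 (1.13, SE 0.46), the inhibitory receptor gene of myeloid cells Lilrb4a (1.11, SE 0.92), the receptor gene of complement fragment C3a, C3ar1 (1.08, SE 0.56), and Adgrg7, an adhesion G protein-coupled receptor (1.08, SE 0.46). Slc16a1, which encodes the lactate transporter MCT1, was at 8.71, 9.23 and 9.09 in HD mice and at 8.01, 8.36 and 7.43 in CON mice (difference 1.08, SE 0.32).

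**Figure D1:**
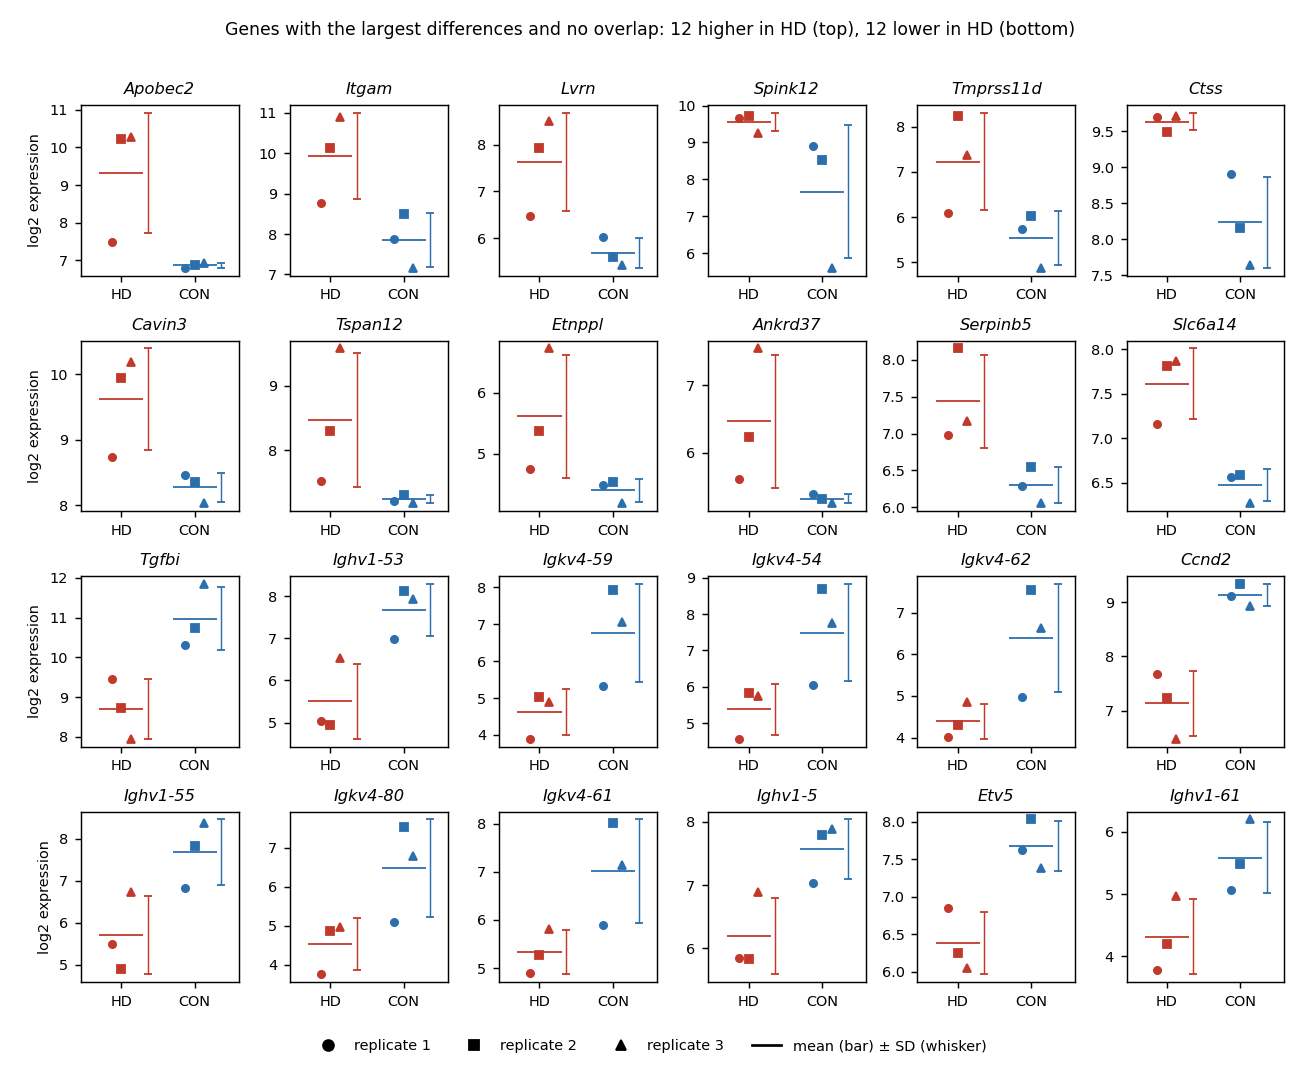
Log2 expression (vertical axes, a different range in each panel) of the 24 brighter genes with the largest differences and no overlap, in 3 HD mice (red, left) and 3 CON mice (blue, right). Bars are means, whiskers are 1 SD and symbols mark the replicate number; the top 12 panels are higher and the bottom 12 lower in HD, and HD replicate 1 is the HD mouse nearest to CON for Apobec2, Itgam and Tgfbi.

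The genes with the smallest p were mostly genes with small, even differences. Scarb2, a receptor of the lysosomal membrane, was at 9.06, 9.0 and 8.84 in HD mice and at 8.62, 8.57 and 8.42 in CON mice (difference 0.43, SE 0.09). Its differences within the numbered mice (0.44) and within the lettered mice (0.42) were alike. Slc9a9, which exchanges sodium for protons across endosomal membranes, was at 6.97, 7.37 and 7.93 in HD mice and at 6.32, 6.55 and 6.64 in CON mice (difference 0.92, SE 0.21). The other 8 were lower in HD. Klf10, a TGF-beta-inducible zinc finger factor, was at 7.99, 7.75 and 7.87 in HD mice and at 8.42, 8.31 and 8.79 in CON mice (difference -0.63, SE 0.15). Ephx1, the microsomal epoxide hydrolase, was at 9.14, 9.21 and 9.61 in HD mice and at 9.79, 9.97 and 10.32 in CON mice (difference -0.71, SE 0.16). Cbll1, which encodes the ubiquitin ligase Hakai, differed by -0.58 (SE 0.11) and Reep6, a shaper of the endoplasmic reticulum, by -0.68 (SE 0.15), both with no overlap. Actn1, which encodes the actin crosslinker alpha-actinin, was at 9.72, 9.30 and 10.04 in HD mice and at 9.94, 10.20 and 10.66 in CON mice (difference -0.58, SE 0.11). HD replicate 3 exceeded CON replicate 1 for Actn1, so these groups overlapped, and the fit behind the SE compares values after the difference between code styles is taken out. Groups also overlapped for Zfp362, a zinc finger gene (-0.31, SE 0.06). Rela, which encodes the p65 subunit of NF-kB, was at 9.21, 9.02 and 9.91 in HD mice and at 9.79, 9.74 and 9.98 in CON mice, a difference of -0.65 within the numbered mice and of -0.06 within the lettered ones.

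Immunoglobulin V segments were lower in HD as a group. These are the gene segments that B cells join to make the variable ends of antibodies, and their transcripts come from B and plasma cells. The group was chosen after its values were seen. Many segments of the same subfamily are close copies whose probes can read each other's transcripts. All are transcribed in the B and plasma cells of a sample, so they are not separate measurements. Of 199 measured V segments of the heavy (Ighv) and kappa (Igkv) chains, 184 were lower in HD, where 47.8% of all genes were lower. No overlap with HD lower held for 44 of them and with HD higher for 0, against 3.91% and 4.64% of all genes. The median difference was -0.48 over the 199 and -0.76 over the 128 whose mean over all mice lay above that of the median feature. The mean over the 128 was 4.85, 4.99 and 5.40 in HD mice, against 5.26, 6.13 and 6.25 in CON mice. CON replicate 1 was lower than HD replicate 3, so this mean did overlap between the groups, and leaving out single mice moved the median of the 128 between -1.02 and -0.51.

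Ighv1-53, on chromosome 12, was at 5.05, 4.93 and 6.52 in HD mice and at 6.97, 8.11 and 7.94 in CON mice (difference -2.17, SE 0.91). Igkv4-54, on chromosome 6, was at 4.57, 5.83 and 5.74 in HD mice and at 6.04, 8.68 and 7.74 in CON mice (difference -2.11, SE 1.04). For both, 1 CON mouse, replicate 1, was nearer to HD than the others were. Igkv4-62 (-2.0, SE 1.03), Igkv4-80 (-1.95, SE 1.03) and Igkv4-61 (-1.69, SE 1.02) had the same order of mice within CON. Jchain, which encodes the joining chain of IgA and IgM and marks plasma cells, was at 4.11, 4.6 and 4.77 in HD mice and at 4.74, 5.91 and 5.93 in CON mice (difference -1.04, SE 0.58). Mzb1, another plasma cell gene, differed by -0.19 (SE 0.15) with no overlap. The constant region gene Ighm (0.06, SE 0.28) and the B cell receptor gene Cd79a (0.05, SE 0.09) had differences near 0. V segments of the T cell receptor, with 114 measured, had a median difference of 0.00. In scraped tissue fewer cells of a type and less RNA per cell cannot be told apart, here and for every cell type below.

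**Figure D2:**
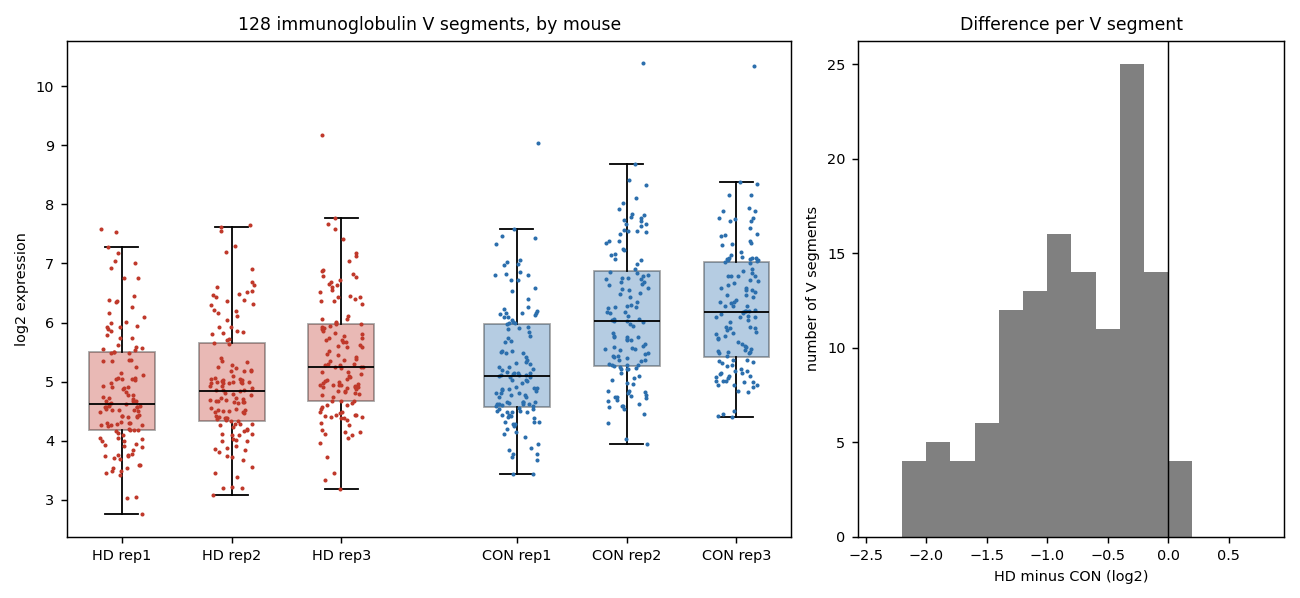
Left, log2 expression of the 128 brighter immunoglobulin V segments in each HD mouse (red) and each CON mouse (blue), with 1 point per segment and boxes for the median and quartiles. Right, the number of V segments by difference HD minus CON (log2), of which 124 lie below 0; CON replicate 1 sits within the range of the HD mice.

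Macrophage markers were higher in HD. Of 31 measured, 29 were higher in HD (52.2% of all genes were), 0 passed, and 11 had no overlap with HD higher, against 4.64% of all genes. The median difference was 0.39, against 0.00 over all genes, and it was 0.43 within the numbered mice and 0.63 within the lettered ones. The mean over the list was 6.85, 6.69 and 6.67 in HD mice, against 6.48, 6.15 and 6.04 in CON mice, with all HD mice above all CON mice and CON replicate 1 the nearest. Markers of 1 cell type move together in a tissue sample, so the 31 are not separate observations.

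Adgre1, which encodes the classical surface antigen of mouse macrophages, was at 6.71, 6.69 and 6.56 in HD mice and at 6.01, 5.33 and 5.50 in CON mice (difference 1.04, SE 0.44). The HD mice differed little among themselves. Csf1r, the receptor on which macrophages depend for survival, was at 7.70, 7.30 and 7.33 in HD mice and at 7.14, 6.61 and 6.59 in CON mice (difference 0.67, SE 0.39). Cd68, a glycoprotein of macrophage lysosomes, was at 8.90, 9.22 and 9.50 in HD mice and at 8.75, 8.56 and 8.67 in CON mice (difference 0.54, SE 0.29). The groups of these 3 genes did not touch. Cd163, a scavenger receptor of resident macrophages, was dim in all mice and differed by -0.02 (SE 0.07). Csf1, the growth factor that binds Csf1r, differed by 0.20 (SE 0.26) with overlapping groups.

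Complement and lysosomal genes, which overlap with the macrophage program, were also higher in more members than not. Of 23 complement and mucosal defence genes, 18 were higher in HD (52.2% of all genes were), 0 passed and 4 had no overlap with HD higher (4.64% of all genes), with a median difference of 0.34. C1qc, a chain of the complement starter C1q made largely by macrophages, was at 7.20, 6.97 and 7.03 in HD mice and at 6.73, 6.41 and 6.34 in CON mice (difference 0.57, SE 0.29). C4b, the complement component cleaved after it, was at 8.28, 8.68 and 8.32 in HD mice and at 8.15, 7.88 and 7.55 in CON mice (difference 0.57, SE 0.30). Of 32 lysosomal and endosomal genes, 23 were higher, 0 passed, 8 had no overlap with HD higher and 1 with HD lower, with a median of 0.17. The 8 were Scarb2, Lamp2, Ctsh, Ctss, Hexa, Gla, Slc9a9 and Cd68, of which Ctss and Cd68 are also macrophage markers. Hexa, a subunit of the lysosomal enzyme that degrades gangliosides, was at 8.80, 8.74 and 8.84 in HD mice and at 8.56, 8.25 and 8.48 in CON mice (difference 0.36, SE 0.14). Lower in HD with no overlap was Atp6v0d2, a subunit of the proton pump, at -0.75 (SE 0.95).

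Mesothelial genes were higher in the same mice. The mesothelium covers the outer surface of the uterus, and 14 of its 16 measured markers were higher in HD, against 52.2% of all genes, with 0 passing and a median of 0.24. No overlap with HD higher held for 2 of the 16, against 4.64% of all genes. Msln, which encodes mesothelin, was at 7.51, 7.74 and 7.93 in HD mice and at 7.41, 6.77 and 6.65 in CON mice (difference 0.78, SE 0.37). The mean over the list was 8.08, 8.12 and 8.09 in HD mice, against 8.05, 7.82 and 7.58 in CON mice, so that CON replicate 1 was close to HD in this list as in the macrophage list. What part the share of surface tissue in a scraping has in the other differences was not tested.

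**Figure D3:**
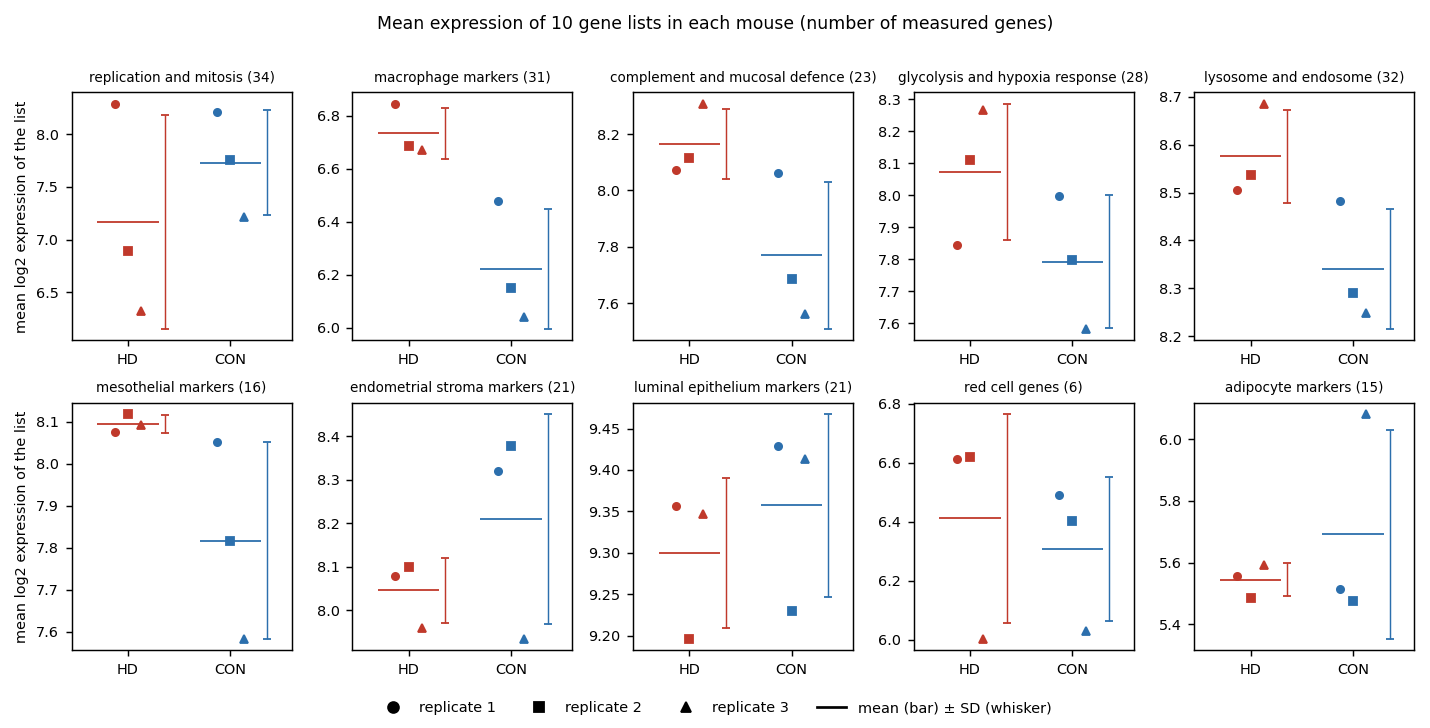
Mean log2 expression over the measured genes of 10 lists (number of genes in each title) in 3 HD mice (red, left) and 3 CON mice (blue, right), with bars for group means, whiskers for 1 SD and symbols for the replicate number. Macrophage, complement, lysosome and mesothelial means are higher in every HD mouse than in every CON mouse, while those of replication and mitosis, glycolysis, stroma, luminal epithelium, red cell and fat cell genes overlap.

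Genes of glycolysis and the response to low oxygen were higher in HD in 23 of 28 measured members (52.2% of all genes were), with 0 passing and a median of 0.18. No overlap held for 4 with HD higher and 1 with HD lower, against 4.64% and 3.91% of all genes. Cells with little oxygen stabilise the factor HIF1, which binds the core letters ACGTG in promoters and induces glycolytic enzymes and the prolyl hydroxylases of the Egln family that in turn mark HIF1 for degradation. Ankrd37, an ankyrin repeat protein induced by HIF1, was at 5.61, 6.24 and 7.54 in HD mice and at 5.39, 5.32 and 5.25 in CON mice (difference 1.14, SE 0.68). The CON mice were alike and HD replicate 3 was the highest, and without it the plain difference of means was 0.61. Egln1 was at 9.86, 10.04 and 10.28 in HD mice and at 9.81, 9.68 and 9.74 in CON mice (difference 0.31, SE 0.25). Egln3 was at 8.22, 9.68 and 10.61 in HD mice and at 8.93, 8.2 and 6.26 in CON mice (difference 1.71, SE 0.87). The groups of Egln3 overlapped, and its difference was 0.39 within the numbered mice and 4.35 within the lettered ones. Pdk1, the kinase that keeps pyruvate out of mitochondria, differed by 0.52 (SE 0.28) and the glycolytic enzyme Tpi1 by 0.33 (SE 0.21), both with no overlap. Hk1, a hexokinase, was at 7.34, 7.05 and 7.13 in HD mice and at 7.51, 7.48 and 7.75 in CON mice (difference -0.41, SE 0.11). The list's median was 0.07 within the numbered mice and 0.53 within the lettered ones. When each of the 6 mice was left out it lay between 0.13 and 0.31.

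The promoter windows of Ankrd37, Egln1 and Egln3 are shown because these genes are oxygen-regulated members of the list that differ in how evenly the mice separate. The windows run from 250 bases before to 50 bases after the start of each gene, on its own strand, from RefSeq in build GRCm38.p6, and capitals mark ACGTG or its reverse complement CACGT. Ankrd37 lies at chr8:45999801-46000100, Egln1 at chr8:124949205-124949504 and Egln3 at chr12:54203825-54204124, all on the minus strand.
Ankrd37: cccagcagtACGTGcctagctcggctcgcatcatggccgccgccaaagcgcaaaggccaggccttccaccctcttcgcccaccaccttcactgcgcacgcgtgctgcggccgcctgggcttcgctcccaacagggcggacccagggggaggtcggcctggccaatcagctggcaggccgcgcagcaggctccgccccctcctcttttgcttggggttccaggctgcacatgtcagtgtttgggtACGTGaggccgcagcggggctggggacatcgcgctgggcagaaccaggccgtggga
Egln1: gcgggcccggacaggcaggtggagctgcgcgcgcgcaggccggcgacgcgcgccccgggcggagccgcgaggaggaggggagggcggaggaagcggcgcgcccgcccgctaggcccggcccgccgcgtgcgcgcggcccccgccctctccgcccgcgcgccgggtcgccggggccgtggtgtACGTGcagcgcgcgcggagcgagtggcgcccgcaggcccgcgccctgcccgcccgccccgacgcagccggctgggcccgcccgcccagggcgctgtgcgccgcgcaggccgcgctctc
Egln3: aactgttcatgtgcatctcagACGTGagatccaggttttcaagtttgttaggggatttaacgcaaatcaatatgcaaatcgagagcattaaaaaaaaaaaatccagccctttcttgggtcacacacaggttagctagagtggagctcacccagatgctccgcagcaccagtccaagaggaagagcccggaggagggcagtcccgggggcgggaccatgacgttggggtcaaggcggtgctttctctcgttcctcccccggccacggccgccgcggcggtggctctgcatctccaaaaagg
For each gene the first window with a match was taken, so a window without a match could not be shown. In these windows Ankrd37 holds 2 matches, Egln1 holds 1 and Egln3 holds 1. Searched on both strands, these letters occur in 22 of the 29 list genes with a window (75.9%), against 5886 of 27025 genes (21.8%). A gene was counted if any of its windows held them. Of the 4 list genes with no overlap and HD higher, 2 hold them. The list was made of genes known to respond to oxygen, so its share describes the list and not these mice, and a match of letters is not a measured binding site.

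Genes of DNA replication and mitosis were lower in HD in 33 of 34 members (47.8% of all genes were), but no member separated the groups. The median was -0.53, with 0 passing. No overlap held for 0 in either direction, against 3.91% of all genes with HD lower and 4.64% with HD higher. The mean over the list was 8.29, 6.89 and 6.32 in HD mice, against 8.21, 7.75 and 7.22 in CON mice. HD replicate 1 was the highest of all 6 mice and HD replicates 2 and 3 were the lowest, so the spread within HD was larger than the difference between the groups. The median was -1.12 without HD replicate 1 and -0.13 without HD replicate 3. Mki67, the gene of a nuclear antigen of dividing cells, was at 10.38, 8.15 and 7.02 in HD mice and at 10.25, 9.80 and 9.21 in CON mice (difference -1.23, SE 0.85).

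Cyclin D2 kept the order of the replication genes within HD but not between the groups. Ccnd2 was at 7.68, 7.24 and 6.48 in HD replicates 1, 2 and 3. In HD replicate 1, where replication genes were highest, it was still below every CON mouse. No other measured member of the list of D and E cyclins, kinases and inhibitors differed by as much. Of 23 D and E cyclins, kinases and inhibitors, 16 were lower (47.8% of all genes were), 0 passed and 3 had no overlap with HD lower (3.91% of all genes), with a median of -0.06. Cyclin D3 (Ccnd3) was at 7.02, 7.06 and 7.17 in HD mice and at 7.08, 7.10 and 6.98 in CON mice (difference 0.03, SE 0.08). The other list members with no overlap were Myc, which drives growth and division, at -0.45 (SE 0.25) and the cell cycle repressor E2f4 at -0.28 (SE 0.15).

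Of 27 measured ligands, receptors and feedback genes of FGF and EGF signalling, 17 were lower in HD (47.8% of all genes were), 0 passed, and the median was -0.04. The median was -0.11 within the numbered mice and turned to 0.04 within the lettered pair. No overlap with HD lower held for 5 (3.91% of all genes) and with HD higher for 0. The 5 were Spry1, Spry2, Spred2, Fgf18 and Hbegf, of which the first 3 are feedback genes that ERK switches on and that damp the receptor's signal. Spry1 was at 7.04, 6.91 and 6.91 in HD mice and at 7.31, 7.45 and 7.16 in CON mice (difference -0.35, SE 0.11). Spry2 was at 7.56, 7.40 and 7.53 in HD mice and at 7.97, 8.18 and 7.70 in CON mice (difference -0.45, SE 0.15). Both sprouty genes were lower in every HD mouse, by more in the numbered mice than in the lettered pair. Spred2, a related inhibitor of RAS, was at 8.33, 8.06 and 7.95 in HD mice and at 8.52, 8.47 and 8.75 in CON mice (difference -0.47, SE 0.18). The ligand Fgf18 was at 7.70, 7.35 and 7.59 in HD mice and at 8.21, 8.16 and 8.03 in CON mice (difference -0.59, SE 0.25). The EGF family ligand Hbegf differed by -0.34 (SE 0.35) with no overlap.

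In the BMP and TGF-beta pathway 26 of 36 members were lower (47.8% of all genes were) and 0 passed. The median was -0.08, with -0.10 within the numbered mice and 0.11 within the lettered pair. No overlap held for 2 members in each direction, which is near the shares over all genes of 4.64% with HD higher and 3.91% with HD lower, so their number is not a result about the pathway. The receptor Bmpr1a was at 9.32, 9.41 and 9.26 in HD mice and at 9.05, 9.09 and 8.89 in CON mice (difference 0.32, SE 0.11), and the ligand Bmp5 differed by 0.37 (SE 0.16). The signal carrier of TGF-beta, Smad3, was at 7.38, 7.23 and 7.25 in HD mice and at 7.64, 7.49 and 7.65 in CON mice (difference -0.31, SE 0.12), and the BMP target Id1 differed by -0.55 (SE 0.30). All 4 had no overlap. Among 38 Wnt genes the secreted ligand Wnt5a, a stromal gene needed for gland formation in mice, was at 8.01, 8.00 and 8.11 in HD mice and at 8.30, 8.41 and 8.44 in CON mice (difference -0.34, SE 0.17). The secreted Wnt inhibitor Wif1 was at 5.22, 5.45 and 5.39 in HD mice and at 5.81, 5.88 and 5.94 in CON mice (difference -0.52, SE 0.22). Values within each group were tight for both Wnt genes, and the median of the Wnt list was -0.01.

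Genes of the actin cytoskeleton and adhesion were lower in 21 of 29 members (47.8% of all genes were), with 0 passing and a median of -0.07 that was 0 within the lettered pair. No overlap held for 5 with HD lower and 2 with HD higher, against 3.91% and 4.64% of all genes. Srf, the transcription factor that controls actin genes, was at 7.94, 7.66 and 7.95 in HD mice and at 8.32, 8.27 and 8.06 in CON mice (difference -0.37, SE 0.13). The actin-binding or actin-associated protein genes Actn4 (-0.22, SE 0.12), Palld (-0.48, SE 0.30), Csrp1 (-0.21, SE 0.14) and Lima1 (-0.23, SE 0.18) also had no overlap. Itgb1, the common beta chain of integrins, was at 9.89, 9.82 and 9.76 in HD mice and at 9.61, 9.63 and 9.40 in CON mice (difference 0.28, SE 0.10). Smooth muscle and pericyte markers were lower in 19 of 20 members (47.8% of all genes were), with 0 passing and a median of -0.12. No overlap with HD lower held for 3 of them, against 3.91% of all genes. The mean over the list was 6.34, 6.22 and 6.50 in HD mice, against 6.24, 6.57 and 6.67 in CON mice, so it overlapped between the groups. How much muscle each scraping held was not measured, and its part in these values was not tested.

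Lipid genes are known to respond to a high-fat diet in the liver. Of 30 genes of lipid uptake and droplets, 15 were higher and 15 lower, with 0 passing, and of 30 genes of fatty acid oxidation 16 were higher and 14 lower. Fatty acid synthesis was lower in 16 of 21 members (47.8% of all genes were), with 0 passing, a median of -0.13 and 2 with no overlap and HD lower (3.91% of all genes). The desaturase gene Scd1, which makes monounsaturated fatty acids and is repressed by dietary polyunsaturated fat in liver, was at 8.05, 7.22 and 7.20 in HD mice and at 8.40, 8.03 and 8.81 in CON mice (difference -0.92, SE 0.34). HD replicate 1 lay just above CON replicate 2, so the groups of Scd1 overlapped. Fads1, a desaturase of polyunsaturated fatty acids, was at 6.64, 6.49 and 6.33 in HD mice and at 6.90, 6.91 and 6.95 in CON mice (difference -0.44, SE 0.31). Agpat2, an enzyme of triglyceride and phospholipid synthesis, differed by -0.22 (SE 0.09) and the last enzyme of cholesterol synthesis, Dhcr7, by -0.32 (SE 0.13), both with no overlap. The synthesis list's median was -0.18 within the numbered mice and 0.07 within the lettered ones.

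Fat cell markers were lower in 11 of 15 members with a median of -0.13, and this followed the lettered CON mouse. The mean over the list was 5.56, 5.49 and 5.59 in HD mice, against 5.52, 5.48 and 6.08 in CON mice. Without CON replicate 3 the median was 0.00. Insulin and IGF1 signalling genes had a median of -0.04 over 36 members. Irs2, the insulin receptor substrate, was at 7.85, 7.87 and 7.97 in HD mice and at 8.11, 8.23 and 8.02 in CON mice (difference -0.22, SE 0.16). Igf1, the stromal growth factor through which estradiol acts on the uterine epithelium, was at 7.42, 7.34 and 6.75 in HD mice and at 7.53, 7.61 and 6.45 in CON mice (difference -0.03, SE 0.55), with both lettered mice low.

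Subunits of respiratory chain complexes I and III were higher in HD in 34 of 42 members (52.2% of all genes were), with 0 passing, by a median of 0.07 that is small beside the typical SE and was 0.01 within the lettered pair. Of the 42, 3 had no overlap with HD higher and 1 with HD lower, against 4.64% and 3.91% of all genes. Ndufa1, a subunit of complex I, was at 7.38, 7.87 and 7.53 in HD mice and at 7.21, 7.30 and 6.90 in CON mice (difference 0.46, SE 0.14). Antioxidant and detoxification genes had a median of -0.06, which turned to 0.03 within the lettered pair. Of 30, 18 were lower (47.8% of all genes were), 0 passed and 4 had no overlap, all with HD lower (3.91% of all genes). Besides Ephx1 these were the glutathione transferases Gstp1 and Gsta4 (-0.66, SE 0.25, and -0.63, SE 0.32) and the catalase gene Cat, which was at 8.90, 8.38 and 8.73 in HD mice and at 9.03, 9.14 and 9.83 in CON mice (difference -0.66, SE 0.33). Of 22 heat shock genes, 17 were lower (47.8% of all genes were) and 0 passed, with a median of -0.04 that turned to 0.01 within the numbered mice. Groups did not touch for 4 with HD lower (3.91% of all genes) and for 1, the cochaperone gene Dnajb6, with HD higher (0.12, SE 0.11). The cochaperone Bag3 was at 7.67, 7.66 and 7.68 in HD mice and at 8.01, 7.90 and 8.09 in CON mice (difference -0.33, SE 0.15), and the small heat shock protein gene Hspb6 differed by -0.49 (SE 0.18). Ppargc1a, a coactivator of mitochondrial genes, was at 6.96, 6.51 and 7.12 in HD mice and at 7.24, 7.37 and 8.30 in CON mice (difference -0.77, SE 0.36).

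Most members of 4 immune signalling lists other than that of macrophages were higher in HD, with small medians that turned below 0 within the numbered mice, and 0 passed in any of them. HD was higher for 21 of 28 genes of NF-kB, for 28 of 41 cytokines and chemokines, for 25 of 34 interferon-stimulated genes and for 11 of 18 genes of antigen presentation, against 52.2% of all genes. The interferon-stimulated list had a median of 0.11, with -0.27 within the numbered mice and 0.94 within the lettered pair. Of its 34 genes, 3 had no overlap with HD lower and 0 with HD higher, against 3.91% and 4.64% of all genes. These 3, which ran against the majority of their list, encode membrane proteins that block virus entry. Ifitm1 differed by -0.63 (SE 0.26) and Ifitm2 by -0.40 (SE 0.13), while Ifitm3 was at 11.53, 11.03 and 11.45 in HD mice and at 11.75, 11.63 and 11.99 in CON mice (difference -0.46, SE 0.20). The median of the cytokine and chemokine list was 0.06, with -0.05 within the numbered mice and 0.36 within the lettered pair. No overlap held for 4 of its genes with HD higher and 1 with HD lower, against 4.64% and 3.91% of all genes. The interleukin gene Il1b was at 5.54, 5.46 and 6.22 in HD mice and at 5.28, 5.11 and 5.22 in CON mice (difference 0.53, SE 1.19). The SE of Il1b is set by the pellet mice that share the estimate, with an SD of 2.59 in MIX mice and 1.63 in E2 mice. The chemokine gene Ccl3 differed by 0.62 (SE 0.92), the gene of the interleukin receptor antagonist Il1rn by 0.50 (SE 0.98) and the interleukin gene Il18 by 0.26 (SE 0.20), all with no overlap. Cxcl15, a chemokine that mouse uterine glands secrete, differed by -0.95 (SE 0.88) with no overlap. The NF-kB list had a median of 0.04, with -0.08 within the numbered mice and 0.32 within the lettered pair, and 2 genes with no overlap and HD higher, Il1b and the apoptosis inhibitor gene Birc3 (0.43, SE 0.24). Antigen presentation had a median of 0.03, with -0.18 and 0.47 within the numbered and lettered mice, and Ctss alone had no overlap. T, NK and B cell markers had a median of -0.01 over 24 members.

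Estradiol targets of the uterus were higher in 21 of 32 members (52.2% of all genes were), with 0 passing and a median of 0.22, with -0.02 within the numbered mice and 0.75 within the lettered ones. The secreted iron-binding protein gene Ltf, a classical estradiol target, was at 12.22, 12.68 and 13.09 in HD mice and at 12.49, 12.08 and 12.02 in CON mice, with overlapping groups. Pgr, which encodes the receptor of progesterone, was at 10.64, 9.94 and 9.21 in HD mice and at 10.46, 10.24 and 10.91 in CON mice, again with overlap. The estrogen receptor gene Esr1 was at 9.16, 9.14 and 9.34 in HD mice and at 9.16, 9.55 and 9.62 in CON mice. Genes of the progesterone response were lower in 14 of 24 members (47.8% of all genes were), with 0 passing and a median of -0.16. No overlap held for 3 with HD lower and 1 with HD higher, against 3.91% and 4.64% of all genes. With HD lower were the transcription factor genes Gata2, at 8.84, 8.5 and 8.77 in HD mice and at 8.94, 9.0 and 9.04 in CON mice (difference -0.29, SE 0.19), and Klf9 (-0.33, SE 0.35), and Cyp26a1, an enzyme that degrades retinoic acid (-0.21, SE 0.90). Fgl2, an immunoregulatory fibrinogen-like protein, was higher in HD with no overlap, at 8.58, 8.85 and 8.81 in HD mice and at 8.38, 8.02 and 7.97 in CON mice (difference 0.62, SE 0.20). Hpgd, which inactivates prostaglandins, was at 8.28, 8.64 and 8.14 in HD mice and at 8.03, 7.75 and 7.60 in CON mice (difference 0.56, SE 0.32). Luminal epithelium markers had a median of -0.02, endometrial stroma markers of -0.12 and endothelial markers of -0.11, where the endothelial junction gene Cdh5 was at 6.04, 5.84 and 6.21 in HD mice and at 6.64, 7.14 and 6.70 in CON mice (difference -0.80, SE 0.92). The clock gene Per1 was at 6.87, 6.97 and 7.12 in HD mice and at 7.20, 7.27 and 7.30 in CON mice (difference -0.27, SE 0.13), and the time of day at which tissue was taken is not given in the labels.

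**Figure D4:**
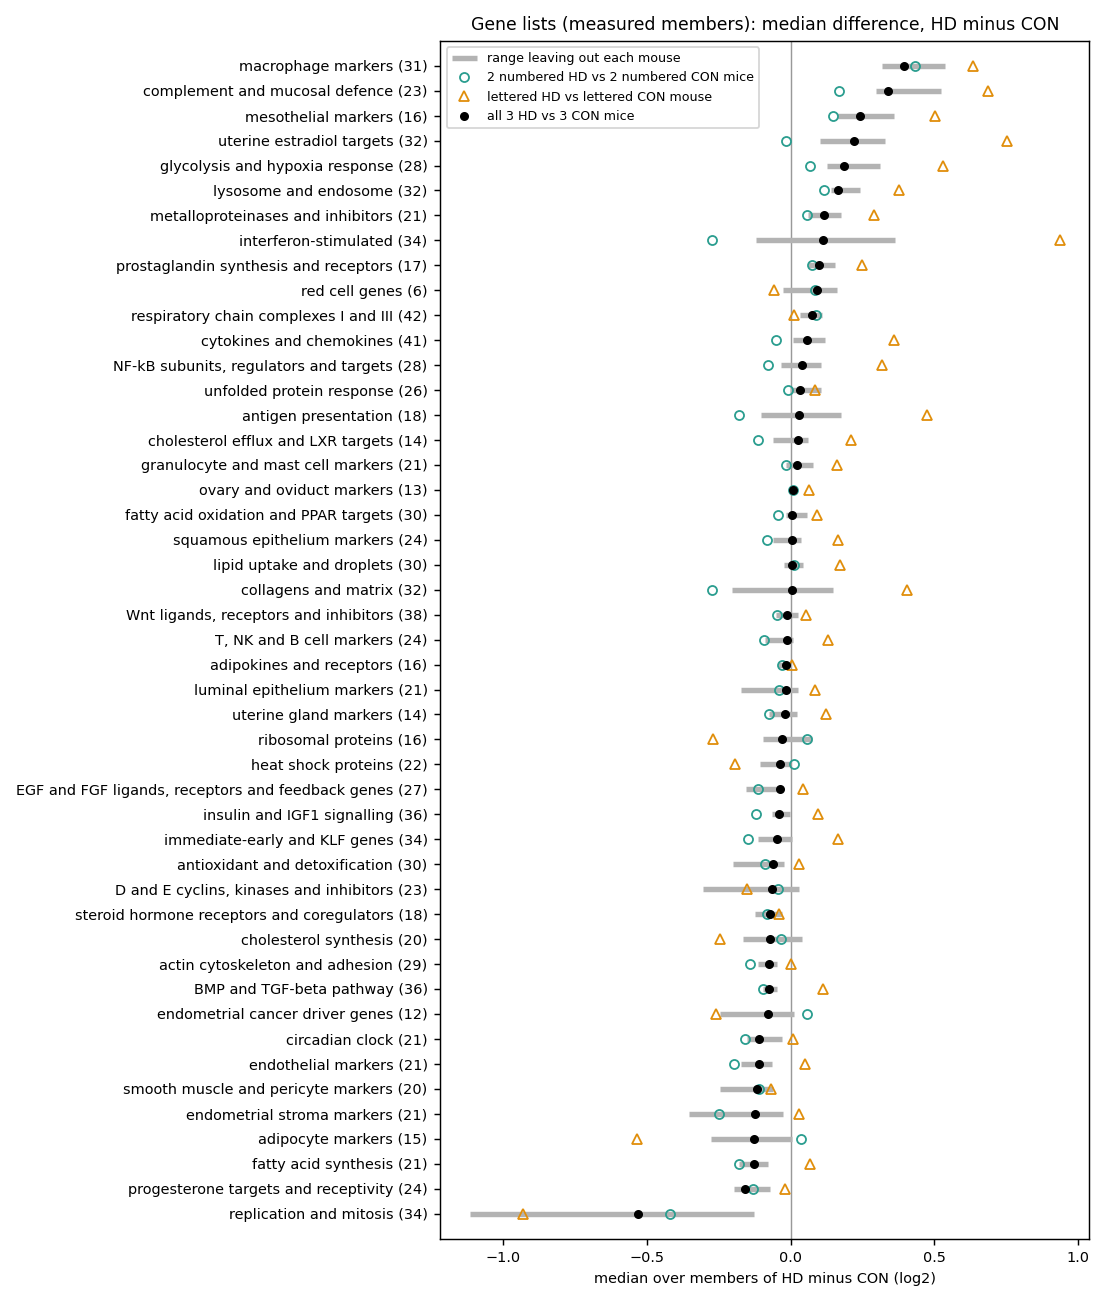
Median difference HD minus CON (log2, horizontal axis) over the measured genes of each of 47 lists (vertical axis, number of genes in parentheses), for all 6 mice (black points), within the numbered mice (green circles) and within the lettered pair (orange triangles), with grey bars for the range when each mouse is left out. Macrophage markers lie farthest right at 0.39 and replication genes farthest left at -0.53, and several lists near 0 have circles and triangles on opposite sides.

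Among the 6 small RNA genes with the smallest p the differences were small and most lay in features at the dim end of the arrays. Of all 669 small RNA genes, 329 lay above the median feature. The array reads the hairpin or its host transcript rather than the mature microRNA, which acts by pairing its seed, bases 2 to 8, with target messengers. The mature forms of the 6 small RNA genes with the smallest p are given here, from RefSeq in build GRCm38.p6 and read 5′ to 3′, with the seed in capitals, to show that they share no seed and so are not 1 family.
mmu-miR-465b-5p: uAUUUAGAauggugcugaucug
mmu-miR-465b-3p: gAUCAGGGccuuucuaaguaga
mmu-miR-380-5p: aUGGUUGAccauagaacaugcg
mmu-miR-380-3p: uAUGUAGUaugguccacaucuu
mmu-miR-680: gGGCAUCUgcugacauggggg
mmu-miR-687: cUAUCCUGgaaugcagcaauga
mmu-miR-7664-5p: cAGUUUACcugucuaugagau
mmu-miR-7664-3p: uCUCUUAGgcuggguuaacuaau
mmu-miR-18b-5p: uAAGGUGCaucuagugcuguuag
mmu-miR-18b-3p: uACUGCCCuaaaugccccuucu
The 10 mature sequences have 10 distinct seeds. The sequence of miR-680 comes from 3 loci and that of miR-465b-3p from 2, so their features could read more than 1 gene.

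Of the 6, the feature annotated as Mir680-2 alone lay above the median feature, and which gene it reads is uncertain, because its identifier and RefSeq place it on different chromosomes. It was at 7.47, 7.77 and 7.91 in HD mice and at 7.42, 7.38 and 7.53 in CON mice (difference 0.27, SE 0.10). HD replicate 1 fell among the CON mice. Mir465b-2 was at 3.23, 3.37 and 3.38 in HD mice and at 3.08, 3.11 and 3.01 in CON mice (difference 0.26, SE 0.08), and Mir380 at 2.61, 2.64 and 2.65 in HD mice and at 2.91, 2.84 and 2.80 in CON mice (difference -0.22, SE 0.07). Both separated the groups by little, at a level where the processing compresses differences. Mir687 (0.29, SE 0.10) and Mir18b (0.22, SE 0.08) also had no overlap, while Mir7664 (0.51, SE 0.19) was -0.14 within the lettered pair. Of the long noncoding RNAs examined, Neat1, the scaffold of nuclear paraspeckles, was at 8.32, 9.44 and 8.58 in HD mice and at 8.29, 8.23 and 7.25 in CON mice (difference 0.86, SE 0.33). HD replicate 1 and CON replicate 1 nearly met. Snhg9, a host transcript of a small nucleolar RNA, was at 6.6, 6.45 and 6.57 in HD mice and at 6.79, 6.79 and 6.85 in CON mice (difference -0.27, SE 0.08). Malat1 differed by 0.23 (SE 0.15) with overlap.

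Across all genes the diet difference within the numbered mice and that within the lettered pair did not resemble each other. Over the 19299 brighter genes Pearson's r between them was 0.003, a description across genes, which are not independent, and 39.5% had the same sign. Over all features 40.7% had the same sign. The 2 differences share no mouse, and the lettered one rests on 1 mouse on each side. For genes with no overlap the sign is the same by construction, and their sizes differed: Ccnd2 was -1.77 within the numbered mice and -2.46 within the lettered ones, Tgfbi -1.44 and -3.90, Etv5 -1.28 and -1.33, Itgam 1.26 and 3.73, and Serpinb5 1.15 and 1.12. Whether the styles mark batches of handling was not tested.

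**Figure D5:**
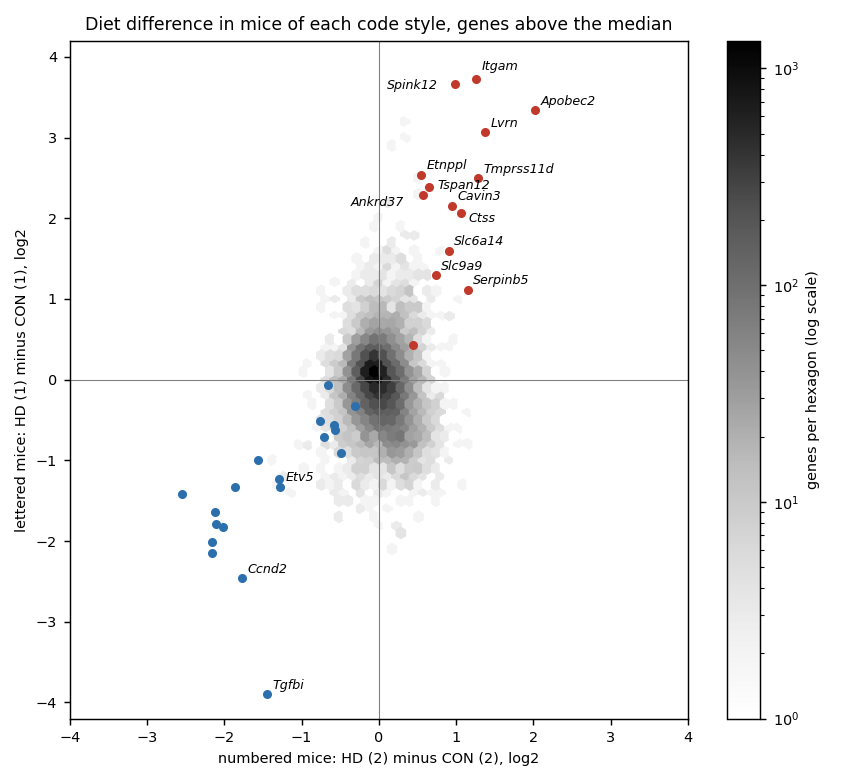
Difference HD minus CON within the numbered mice (horizontal axis, log2, 2 HD and 2 CON) against that within the lettered pair (vertical axis, log2, 1 HD and 1 CON) for 19299 brighter genes, with grey hexagons shaded by the number of genes on a log scale. Red points (HD higher) and blue points (HD lower) are the genes with the largest differences and no overlap or with the smallest p, and unlabelled points are V segments and genes with differences under 0.9 in size; the cloud has no slope, with r at 0.003.

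The pellet mice gave another diet comparison. Plain differences MIX minus E2 were above 0 for 10 of the 12 genes with the largest positive HD minus CON differences and also for 11 of the 12 with the largest negative ones, 9 of which are V segments, against 42.4% of the brighter genes. Itgam was 1.38 higher in MIX than in E2 and Lvrn 0.95 higher, while Ctss differed by -0.00 and Spink12 by -0.55. Ccnd2 was -0.40, Tgfbi 0.23 and Etv5 0.12 in the same comparison. The brighter V segments were higher in MIX than in E2 by a median of 0.85, opposite in sign to HD minus CON. Smooth muscle and pericyte markers turned too, with a plain median of 0.37 and 17 of 20 above 0. So did the respiratory chain (-0.07, 9 of 42) and interferon-stimulated genes (-0.24, 8 of 34). Signs held for macrophage (0.06, 18 of 31), lysosomal (0.07, 21 of 32) and mesothelial genes (0.17, 12 of 16). They also held for glycolysis (0.19, 21 of 28), complement (0.19, 17 of 23) and replication (-0.83, 0 of 34). Other lists fell on either side. Of the 10 genes with the smallest p, 9 were above 0 in the plain comparison and Ccnd2 was not. With code style in the fit, Actn1 (-0.12), Zfp362 (-0.01), Cbll1 (-0.14) and Rela (-0.07) were below 0 as well, and the rest stayed above 0. That count thus depends on how code style is handled. Over the brighter genes HD minus CON and MIX minus E2 had the same sign for 51.1%. The difference between the 2 diet differences was tested as an interaction, with code style in the fit rather than on the plain values. MIX minus E2 in that fit was 0.51 for Spink12, -0.09 for Tgfbi and 0.12 for Ctss, while Itgam, Lvrn, Ccnd2 and Etv5 kept their signs. In the interaction test 0 features (0%) passed, with 1382 (2.1%) at an unadjusted p under 0.05. All MIX mice carry lettered codes, so a plain MIX minus E2 difference holds both diet and code style, which the fit separates through 1 lettered mouse in each other group.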

How the data were processed

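Total RNA of scraped endometrium (250 ng per mouse) was labelled for Affymetrix arrays, per the labels' protocols. The authors deposited log2 expression values per feature, made with RMA per the submitters' processing notes; no label used here states its version, the array library or the genome build. RMA corrects background, equalises the arrays and summarises probes, and it compresses differences of dim features. Precision is limited by the number of mice, since arrays have no depth. Replicates carry different animal codes and were taken as separate mice. No value was renormalized.

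Of 65929 features, 30604 carried 1 gene symbol in the supplied annotation (827 updated), 2146 carried several and 33179 stayed unnamed. A gene was represented by its feature with the highest mean. Brighter genes are those whose mean over the 6 mice exceeded the median of that mean over features, 4.65. Differences were fitted in R 4.3.3 with limma 3.58.1 (lmFit, then eBayes) over all 13 mice, with 4 groups and code style as terms (8 residual degrees of freedom, prior 2.225), two-sided, with Benjamini-Hochberg adjustment over all features at 0.05. The fit was tested on simulated data. Differences within a code style, for MIX minus E2, for V segment and list medians with mice left out, and for list means are plain.

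The rule for named genes left out predicted, clone-based, olfactory and vomeronasal genes. It took the 12 largest differences in each direction among brighter genes with no overlap, the 10 genes with the smallest p at any brightness, the 6 small RNA genes and 6 long noncoding RNAs with the smallest p, Esr1, Pgr, Ltf and Lcn2, and up to 4 members of each list. Other genes were named, mostly for having no overlap, after their values were seen. The comparison and the 47 gene lists (1152 of 1285 memberships measured) were chosen with earlier results of these data known. Replicate numbers were not taken as pairs in the main fit. Deviations of same-numbered HD and CON mice correlated at 0.19, -0.03 and -0.02, and those of different-numbered mice at -0.20 to 0.19. With 3 mice a group these values cannot exclude pairing, and replicate 3 is the lettered mouse of both groups. Alternatives changed the covariate, the mice, the filter, the weights, the variance prior and the centring, and left out each mouse.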

Additional observations from a re-analysis of the deposited data

Results flagged for a closer look

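Of 33 named genes checked in E2, the only group with more than 3 mice, a mouse lay far from the others for 2, and chance alone marks about 1 in 20 groups. Ccnd2 was at 8.892 in E2 replicate 4, against 7.62 to 7.82 in the other E2 mice, which puts that mouse close to the CON mice. Zfp362 was at 7.865 in the same mouse, against 7.40 to 7.46 in the others. E2 replicate 4 is the lettered E2 mouse. Neither value enters HD minus CON itself, and they bear only on its SE, through the shared estimate of the spread.

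For Klf10 the diet difference ran in opposite directions with and without the pellet. All 3 HD mice were below all 3 CON mice. MIX mice were at 8.15, 8.48 and 8.52 and E2 mice at 8.08, 7.88, 8.14 and 7.83, all MIX above all E2. MIX replicate 1 (8.150) and E2 replicate 3 (8.145) nearly touched. All MIX mice carry lettered codes, so this order holds both diet and code style. The interaction, MIX minus E2 less HD minus CON with code style in the fit, was 0.991 (adjusted p = 0.9998 in limma) and did not pass.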

How the results depend on the processing

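Under all 21 alternatives limma called 0 features between HD and CON. The 1918 features at an unadjusted p under 0.05 became 3833 with the 6 mice alone, 3496 with the replicate number as a block, 913 without dim features, 830 with features of 1 symbol only and 10640 with array weights, and 926 to 3121 when single mice were left out (926 with HD replicate 2 out, 1243 with CON replicate 1 out, 3121 with HD replicate 1 out). The 2 filters test fewer features, and for the others the cause was not tested. The 3678 features with no overlap and HD higher became 1680 without dim features, 1418 with 1 symbol and 2471 with arrays centred on their medians, and those with HD lower, 1951, became 1200 with 1 symbol and 4450 with that centring. With 1 mouse fewer separation is easier, and the counts ran between 5290 and 9698 (HD higher) and between 3063 and 6204 (HD lower), highest without HD replicate 3.

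Of 74 named genes, 73 kept their direction under every alternative, and Snhg15 turned to 0.0129 without HD replicate 3, with -0.1967 as the lowest of its values. Most were named for having no overlap, so leaving out 1 mouse could not turn them. Dropping the code style term or a pellet mouse leaves the difference itself unchanged. Values within code styles were not among these alternatives for genes. Within the numbered and the lettered mice the signs were opposite for Mir100hg (0.88 and -0.72) and Mir7664 (0.84 and -0.14). The same held for Lcn2 (-0.008 and 0.95) and Malat1 (0.35 and -0.004). Of 47 lists, 11 kept the sign of their median throughout, 1 (actin cytoskeleton and adhesion) had a median of 0 within the lettered pair, 15 turned within the numbered mice alone and 15 within the lettered pair alone. V segments lower in HD numbered 175 to 189 of 199 with 1 mouse left out, an alternative chosen after seeing the data, as were the values within code styles. With 3 mice a group and a typical SE of 0.116, differences of the size most lists show were not detectable for single genes, and dim features hold compressed values.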
